A study of Homo sapiens with 8 samples.

Results

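The HOX cluster genes encode homeodomain transcription factors and lie in 4 clusters, HOXA to HOXD. Of the 39 human HOX genes, 38 were chosen by matching their Ensembl identifiers to a fixed list of symbols, and 1 HOX gene was not analysed here. They make up 38 of the 37441 genes in the count table, with 10 in HOXA, 10 in HOXB, 9 in HOXC and 9 in HOXD. The genes were followed in 8 RNA-seq libraries, asking how the clusters differed between 2 lung cancer cell lines and how they changed when each line acquired resistance to an FGFR inhibitor.

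NCI-H1581 and NCI-H1703 are non-small cell lung cancer cell lines that respond to CPL304110, an inhibitor of fibroblast growth factor receptors. NCI-H1581R and NCI-H1703R are their resistant variants, selected in rising CPL304110 from 50 nM up to 2.5 µM for NCI-H1581R and 5 µM for NCI-H1703R. Each of the 4 variants had 2 replicate libraries, harvested 24 h after a change of medium. Whether that medium held inhibitor for the resistant variants is not given in the sources used here. NCI-H1581 cells grew in DMEM/F12 and NCI-H1703 cells in RPMI 1640, so line and medium cannot be told apart. Each resistant variant is 1 selected population of 1 line, so the replicates measure repeat cultures of that population and not repeat selections. The spread behind each p-value is that between 2 such cultures. Libraries held 33800389 to 40031710 counts, and 3 counts, used here as the detection floor in a library, equalled 0.0749 to 0.0897 CPM (counts per 1000000 in the library, after TMM scaling).

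HOX genes in a cluster are numbered by paralogue group, from group 1 at the anterior end to group 13 at the posterior end, and in embryos their order along the chromosome follows their order of expression along the body axis. Retinoic acid and CDX factors activate HOX genes, Polycomb complexes keep them silent, and Trithorax complexes keep them active. HOX proteins bind DNA together with the TALE cofactors of the PBX, MEIS and PKNOX families. Adult lung is known to express anterior and central genes more than posterior ones. Anterior is used below for groups 1 to 3, central for groups 4 to 8 and posterior for groups 9 to 13.

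The lines were first checked against tissue markers fixed as lists. The lung factor NKX2-1 had 457 and 601 counts in NCI-H1581 and 1509 and 2341 in NCI-H1581R, against 6 to 24 in the 4 NCI-H1703 and NCI-H1703R libraries. The surfactant gene SFTPC was at 0 in all 8 libraries. The epithelial marker EPCAM had 284 to 537 counts in NCI-H1581 and NCI-H1581R and 3 to 26 in the others, and CDH1, which encodes E-cadherin, had only 10 to 46 in any library. Summed over the 6 epithelial markers listed, the level was instead higher in NCI-H1703, at 77.1 and 74.0 CPM against 23.9 and 19.4 in NCI-H1581. It was 16.1 and 13.3 CPM in NCI-H1581R and 9.09 and 7.18 in NCI-H1703R. The mesenchymal marker VIM had 99631 to 244224 counts throughout. Summed over the 5 neuroendocrine markers listed, the level was 73.5 and 64.2 CPM in NCI-H1581 and 104 and 87.4 in NCI-H1581R. It was 11.7 and 8.61 CPM in NCI-H1703 and 18.6 and 16.6 in NCI-H1703R. Among markers of blood and endothelium, CD3E was at 0, CDH5 at 0 to 1, PTPRC at 0 to 15 and PECAM1 at 0 to 18, whereas CD68, which is also found outside blood cells, had 578 to 3261. The basal keratin KRT5 had 35 to 47 counts in all 4 second replicates and 0 to 1 in all 4 first replicates. Its part in the results was not tested.

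HOX transcripts were found in every cluster in both parental lines, and the lines shared most of the genes detected. With at least 3 counts in both libraries as detection, 32 of 38 genes were detected in NCI-H1581, 25 in NCI-H1581R, 26 in NCI-H1703 and 24 in NCI-H1703R. All genes detected in NCI-H1703 were also detected in NCI-H1581, except HOXA2 and HOXB6. HOXB1 was at 0 in all 8 libraries, and HOXA9 had 8 counts in NCI-H1581 replicate 1 and 0 elsewhere. These 2 genes fell under the filter of 10 counts in total, which left 36 tested. HOXC gave most of the HOX signal in all variants. Summed per transcript length, as CPM per kb, HOXC reached 84.4 and 79.0 in the replicates of NCI-H1581, which was 52.3% and 51.3% of the whole HOX sum. In NCI-H1703 it reached 96.6 and 94.7, or 77.7% and 77.4%. HOXB summed to 52.8 and 49.7 CPM per kb in NCI-H1581 and to 6.68 and 7.90 in NCI-H1703. HOXA gave 13.7 and 16.7 against 12.7 and 11.3, and HOXD gave 10.7 and 8.72 against 8.27 and 8.46. The gap between the 2 lines was widest in HOXB, whereas the nearest HOXD replicates were at 8.72 in NCI-H1581 and 8.46 in NCI-H1703.

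**Figure D1:**
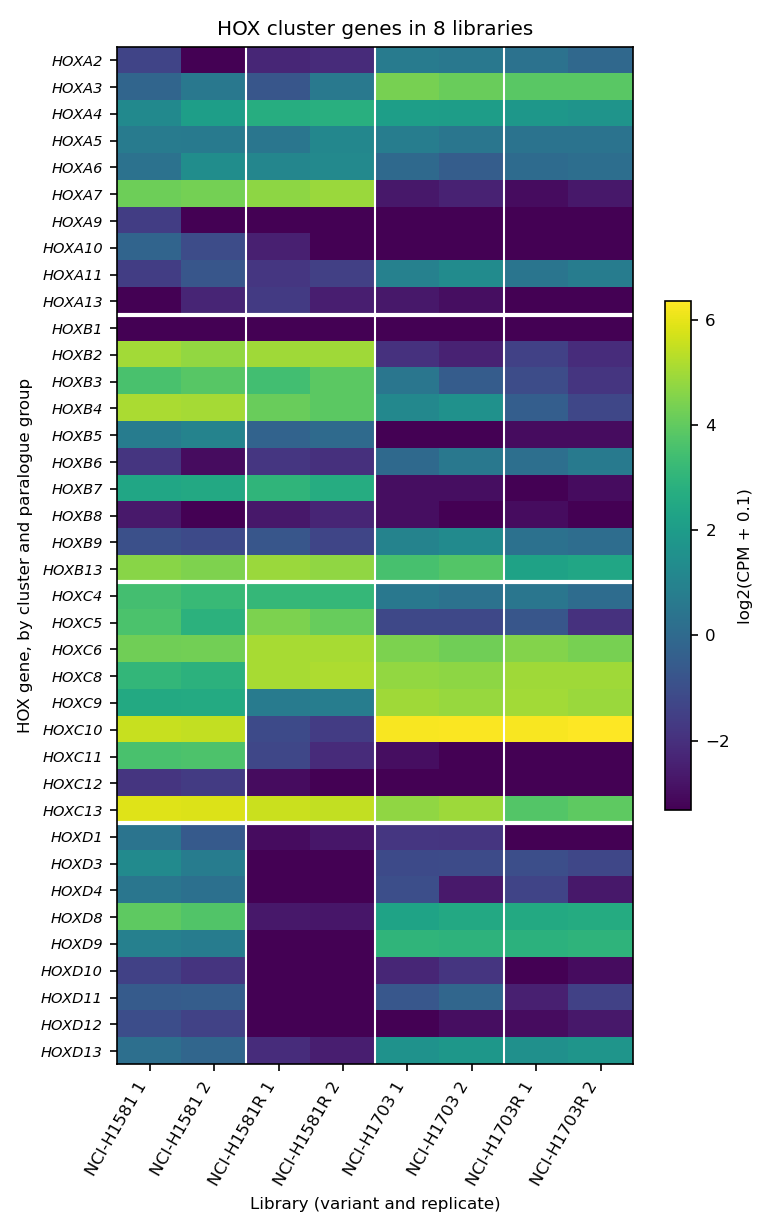
Level of the 38 HOX genes (rows, ordered by cluster and paralogue group) in the 8 libraries (columns, variant and replicate), as log2(CPM + 0.1) in colour. White lines part the clusters and variants; HOXB2 and HOXA7 are bright in the NCI-H1581 and NCI-H1581R columns and dark in the NCI-H1703 and NCI-H1703R columns, and the HOXD block is dark in both NCI-H1581R columns.

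In NCI-H1703 against NCI-H1581, 29 of 38 HOX genes were called at an adjusted p under 0.1, which was 76.3% of them, beside 62.9% of all 18203 genes tested. HOX percentages here and below are of all 38 genes, including the 2 not tested, whereas shares of all genes are of those tested. Of these, 10 were higher in NCI-H1703 (32.5% of all genes were called higher) and 19 were lower (30.4%). The called genes were spread over all clusters, with 6 of 10 in HOXA, 8 of 10 in HOXB, 8 of 9 in HOXC and 7 of 9 in HOXD. By position, 6 of 7 anterior, 11 of 15 central and 12 of 16 posterior genes were called.

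In HOXB (chr17:48528526-48728750), the anterior and central genes were mainly expressed in NCI-H1581. HOXB2 had 1068 and 1096 counts in NCI-H1581 and 6 and 3 in NCI-H1703, a log2 fold change of -7.81 ± 0.32 (SE, adjusted p = 7.16e-07). HOXB4, a regulator of blood stem cells, had 1163 and 1313 counts against 81 and 95 (-3.75 ± 0.19, adjusted p = 2.84e-06). HOXB3 had 396 and 576 against 48 and 20 (-3.76 ± 0.33, adjusted p = 5.51e-05). For these 3 neighbours the libraries of the 2 lines were far apart. HOXB7 had 176 and 223 counts in NCI-H1581 and 1 in each NCI-H1703 library, a ratio of 191 (95% counting interval 52.4 to 1579). HOXB5 had 53 and 77 against 0 and 0, which made it at least 20.5-fold lower in NCI-H1703. HOXB6 and HOXB9, of the same cluster, went the other way. HOXB6 had 6 and 1 counts in NCI-H1581 and 33 and 46 in NCI-H1703, and HOXB9 had 14 and 14 against 71 and 79. Their log2 fold changes were 3.51 ± 0.84 for HOXB6 and 2.48 ± 0.50 for HOXB9 (adjusted p = 0.00771 and 0.00402). HOXB13, the most posterior gene, known for its role in the prostate, had 837 and 899 counts against 426 and 456 (-0.91 ± 0.15, adjusted p = 0.00175). HOXB8 had 0 to 4 counts in every library and was not called.

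HOXA (chr7:27100354-27200091) was split between the lines by gene. HOXA7 had 629 and 795 counts in NCI-H1581 and 2 and 3 in NCI-H1703, a ratio of 272 (95% counting interval 116 to 839). HOXA3 had the opposite pattern, with 27 and 55 counts in NCI-H1581 and 753 and 580 in NCI-H1703 (log2 fold change 4.08 ± 0.27, adjusted p = 1.22e-05). HOXA2, which patterns the hindbrain and second pharyngeal arch, had 10 and 0 against 57 and 45 counts (3.38 ± 0.83, adjusted p = 0.00961). HOXA11, a limb and uterus gene, had 8 and 20 against 67 and 82 (2.47 ± 0.54, adjusted p = 0.00617). These 3 genes were thus higher in NCI-H1703. HOXA6 was lower, at 39 and 104 against 33 and 21 counts (-1.33 ± 0.57, adjusted p = 0.081), a call that was lost in DESeq2, at adjusted p under 0.05, without either NCI-H1703 library and without NCI-H1581 replicate 2. HOXA10 had 26 and 15 counts in NCI-H1581 and 0 in both NCI-H1703 libraries, at least 6.71-fold lower. HOXA4 had 77 and 169 against 156 and 135 counts, and HOXA5, a gene needed for lung development, had 52 and 59 against 60 and 43. For both of these the libraries of the lines overlapped, and neither was called (adjusted p = 0.467 and 0.94). Most HOXA7 exon bases, 62.5% (1507 bases), also lie in the antisense gene HOXA-AS3, and without known strandedness the reads of these 2 genes cannot be told apart. The same limit holds for parts of HOXA6 (39.3%, HOXA-AS3) and HOXA11 (27.2%, HOXA11-AS). HOXA4 shares 31.3% with a noncoding gene on its own strand. These partners have no row in the count table.

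HOXC (chr12:53938831-54056030) was the most expressed cluster in both lines. HOXC10 (ENSG00000180818; chr12:53985065-53990279), a posterior gene of the hindlimb and lumbar region, had 1550 and 1767 counts in NCI-H1581 and 2820 and 2595 in NCI-H1703 (log2 fold change 0.77 ± 0.10, adjusted p = 0.000436). HOXC9 had 195 and 240 against 1161 and 971 counts (2.36 ± 0.15, adjusted p = 1.05e-05). HOXC8 had 281 and 293 against 1020 and 860 (1.77 ± 0.15, adjusted p = 4.37e-05). So the neighbours HOXC8, HOXC9 and HOXC10 were all higher in NCI-H1703. The other HOXC genes that were called lay on either side of them and were lower. HOXC11 had 401 and 497 counts in NCI-H1581 and 1 and 0 in NCI-H1703, a ratio of 858 (lower 95% counting bound 154). HOXC13, a hair and nail gene, had 1970 and 2282 against 988 and 1013 counts (-1.02 ± 0.12, adjusted p = 0.000256). HOXC5 had 405 and 292 against 12 and 11 (-4.85 ± 0.50, adjusted p = 0.000127), and HOXC4 had 363 and 362 against 51 and 38 (-2.96 ± 0.28, adjusted p = 7.63e-05). HOXC6, which shares exon bases with HOXC4 (484 bases), had 637 and 776 against 792 and 629 counts, and its libraries overlapped (0.07 ± 0.14, adjusted p = 0.686). HOXC12 had 6 and 9 counts against 0 and 0, at least 2.36-fold lower, a call lost in DESeq2 and without either NCI-H1703 library. For HOXC5, 67.3% of exon bases are shared with another annotated gene that has no row in the table.

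HOXD (chr2:176092721-176190907) was low in both lines, and its leading gene differed. HOXD8 (ENSG00000175879; chr2:176129694-176132695) had 517 and 531 counts in NCI-H1581 and 177 and 186 in NCI-H1703 (log2 fold change -1.47 ± 0.19, adjusted p = 0.000465). HOXD9, its posterior neighbour, had 59 and 62 counts against 296 and 254 (2.25 ± 0.26, adjusted p = 0.00024). HOXD13, the last gene of the cluster and the one that shapes the digits, also favoured NCI-H1703, at 36 and 33 against 108 and 113 counts (1.74 ± 0.38, adjusted p = 0.00573). HOXD3 was lower there, at 80 and 63 against 13 and 12 (-2.44 ± 0.54, adjusted p = 0.00655), as was HOXD4, at 44 and 44 against 15 and 2 (-2.29 ± 0.70, adjusted p = 0.0252). HOXD1 had 41 and 23 counts against 7 and 6, and HOXD12 had 13 and 11 against 0 and 1, and both were called lower. Both calls were lost without either NCI-H1703 library, that of HOXD1 also without NCI-H1581 replicate 1, and that of HOXD4 without NCI-H1703 replicate 2. HOXD10, with 4 to 9 counts, and HOXD11, with 19 to 27, were not called. Of HOXD8 exon bases, 24.4% also lie in the antisense gene HOXD-AS2, and 52.4% of those of HOXD1 lie in another antisense gene. Neither partner has a row in the count table, so their reads cannot be told apart from those of HOXD8 and HOXD1.

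Per canonical transcript length the leading genes of NCI-H1581 and NCI-H1581R differed, whereas NCI-H1703 and NCI-H1703R had the same first 2. In NCI-H1581 HOXC13 came first at a mean of 24.5 CPM per kb, followed by HOXC10 at 22.8, HOXB2 at 17.6 and HOXB4 at 16.8. The replicates of HOXB2 and HOXB4 overlapped, so their order is not resolved. In NCI-H1703 HOXC10 led at 38.9, followed by HOXC9 at 20.5, HOXC6 at 12.2, HOXC13 at 12.1 and HOXC8 at 11.4 and 10.6 in the replicates, and HOXC6, HOXC13 and HOXC8 overlapped with their neighbours in this order. In NCI-H1581R HOXC6 led at 20.4, followed by HOXC13 at 19.2, HOXB2 at 18.6 and HOXC8 at 14.4, with HOXC13 and HOXB2 overlapping. In NCI-H1703R the order opened with HOXC10 at 39.8, HOXC9 at 20.9, HOXC6 at 13.2, HOXC8 at 12.8 and HOXC13 at 6.14, with HOXC6 and HOXC8 overlapping. Lengths are those of the canonical transcript. With merged exon length HOXC6 came to 9.73 in NCI-H1581R, 5.82 in NCI-H1703 and 6.30 in NCI-H1703R. This took it from the first place in NCI-H1581R, where HOXC13 then led as it did in NCI-H1581. HOXC6 also lost the third place in the other 2, to HOXC13 in NCI-H1703 and to HOXC8 in NCI-H1703R.

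**Figure D2:**
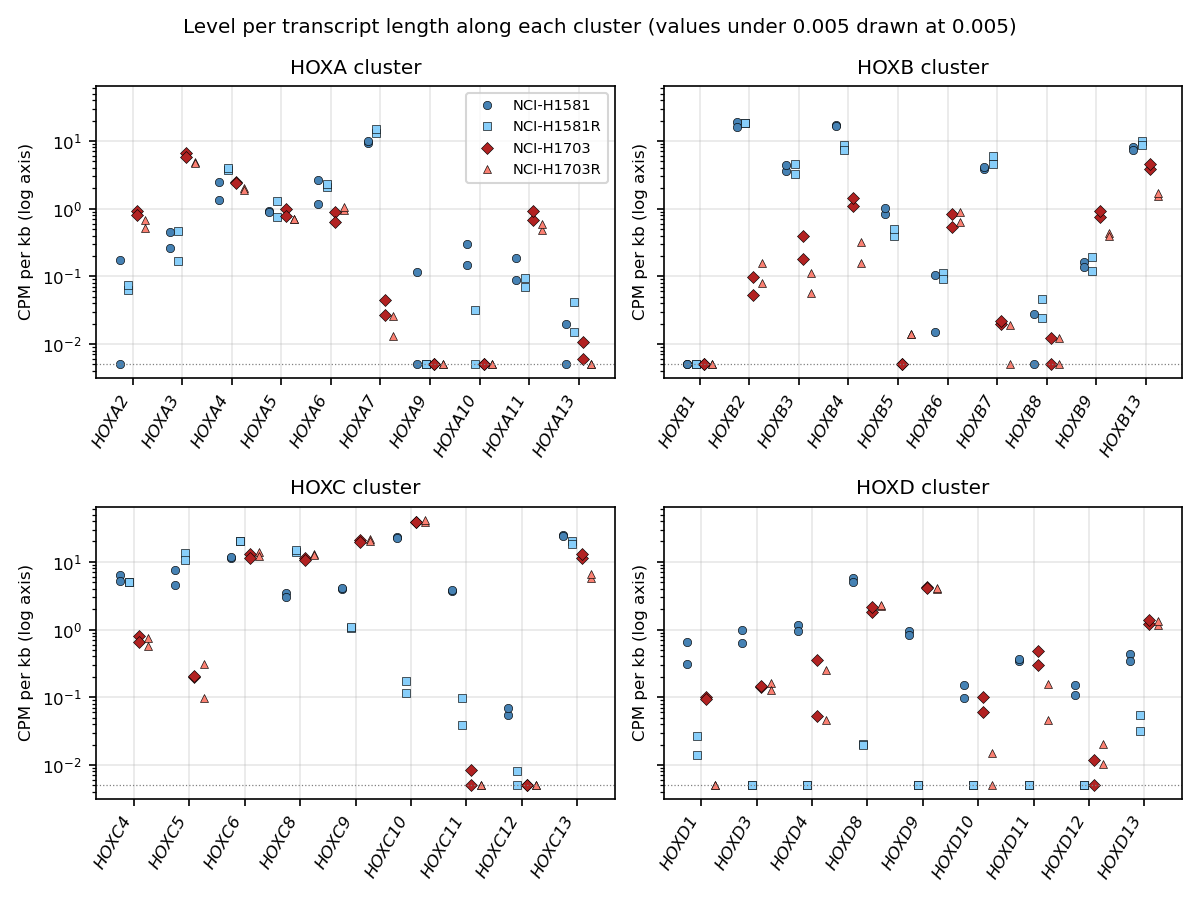
CPM per kb of canonical transcript (log axis) of each HOX gene, 1 panel per cluster, with 1 point per replicate and a colour and marker per variant; values under 0.005 are drawn at 0.005 on the dotted line. HOXC10 stands at 0.145 in NCI-H1581R and at 22.8 to 39.8 in the other variants, and most HOXD points of NCI-H1581R are on the dotted line.

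The same contrast between the resistant variants called 27 of 38 HOX genes (71.1%), beside 52.5% of all genes tested. Of the 27, 12 were higher in NCI-H1703R (25.9% of all genes were called higher) and 15 lower (26.7%). HOXA7 had 980 and 1171 counts in NCI-H1581R and 1 and 2 in NCI-H1703R, HOXB2 had 1181 and 1233 against 10 and 5, and HOXB7 had 302 and 243 against 0 and 1. HOXC5 had 809 and 674 against 19 and 6 counts, and HOXC4 had 323 and 340 against 49 and 37. HOXA3 was higher in NCI-H1703R, at 553 and 548 counts against 19 and 55 (log2 fold change 3.96 ± 0.41, adjusted p = 0.00123). HOXA2 (33 to 44 counts against 4 and 5), HOXA11 (48 and 59 against 7 and 10) and HOXB6 (40 and 56 against 7 and 6) were called higher in NCI-H1703R as well. The calls of HOXA6, HOXA13, HOXB9 and HOXC6 in this contrast were lost when replicate number was fitted as a block (adjusted p = 0.118, 0.122, 0.131 and 0.122). This left 23, beside 42% of all genes called with the block. In HOXD the direction of the calls was mixed among parental cells. Among parental cells 5 HOXD genes were lower and 2 higher in NCI-H1703 (30.4% and 32.5% of all genes). Among resistant cells 5 were instead higher in NCI-H1703R and none lower (25.9% and 26.7% of all genes). HOXD9 had 277 and 294 counts in NCI-H1703R and 0 in both NCI-H1581R libraries, at least 96.7-fold higher. HOXD8 had 217 and 230 against 2 and 2, a ratio of 114 (95% counting interval 44.1 to 419). HOXC10 had 2869 and 3087 counts in NCI-H1703R against 13 and 9 in NCI-H1581R (8.12 ± 0.26, adjusted p = 3.14e-05), and HOXC8, with 1177 and 1174 against 1262 and 1415 counts, was not called (-0.13 ± 0.15, adjusted p = 0.533).

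In NCI-H1581R HOXD transcripts stood at 0 to 5 counts per gene and library, and HOXC genes changed in opposite directions on the 2 sides of the cluster. In NCI-H1581R against NCI-H1581, 15 of 38 HOX genes were called (39.5%), beside 15.1% of all genes tested. Of these 3 rose (7.63% of all genes rose) and 12 fell (7.44%). The 12 were HOXA10, HOXB4, HOXC9, HOXC10, HOXC11, HOXD1, HOXD3, HOXD4, HOXD8, HOXD9, HOXD11 and HOXD13. The 3 that rose were HOXC5, HOXC6 and HOXC8. The count was 17 with replicate number as a block (18.1% of all genes tested), which added HOXA4, higher, and HOXD12, lower (adjusted p = 0.0913 and 0.0935).

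In HOXD, 7 of 9 genes fell and the other 2 had 0 counts in both NCI-H1581R libraries. HOXD8 went from 517 and 531 counts to 2 and 2, a ratio of 274 (95% counting interval 107 to 1006, adjusted p = 4.93e-05). HOXD3 went from 80 and 63 counts to 0 and 0, at least 25.3-fold lower (adjusted p = 0.0167). HOXD9 went from 59 and 62 to 0 and 0, at least 21.2-fold lower (adjusted p = 0.0161). HOXD4 went from 44 and 44 to 0 and 0, at least 15.4-fold lower (adjusted p = 0.0242). In each of these genes the NCI-H1581R libraries held 2 counts or fewer. HOXD13 kept a few counts, 5 and 3 after 36 and 33 (log2 fold change -3.12 ± 0.74, adjusted p = 0.0408). HOXD1, at the other end of the cluster, had 1 and 2 after 41 and 23, a ratio of 22.3 (95% counting interval 7.29 to 111). HOXD11 went from 20 and 25 counts to 0 and 0. HOXD10 had 9 and 7 counts and HOXD12 had 13 and 11 before, both 0 and 0 after. Neither passed the threshold by edgeR on these libraries (adjusted p = 0.139 and 0.12). DESeq2 called HOXD12 lower, and a single edgeR fit of 8 libraries called both lower. The HOXD sum went from 10.7 and 8.72 CPM per kb to 0.0894 and 0.0779. The median log2 change of the 9 genes was -3.95 with genes at 0 set to their bound, beside 0.0397 for all genes tested. In bulk RNA, fewer cells with HOXD transcripts and less HOXD RNA in each cell cannot be told apart.

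RefSeq promoter entries (GRCh38.p14) were at hand for 20 of the 38 genes, with 8 of them in HOXD, and the 4 shown were chosen because these genes fell together although they lie in different stretches of the cluster. Each line gives the 150 bases before the start on the + strand. Capitals mark the TATA box letters TATAAA or their reverse complement TTTATA, which overlap in HOXD13.
HOXD3 chr2:176157157-176157306: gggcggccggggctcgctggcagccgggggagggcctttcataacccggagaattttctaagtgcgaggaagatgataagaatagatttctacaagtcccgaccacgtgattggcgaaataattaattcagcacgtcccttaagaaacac
HOXD4 chr2:176151400-176151549: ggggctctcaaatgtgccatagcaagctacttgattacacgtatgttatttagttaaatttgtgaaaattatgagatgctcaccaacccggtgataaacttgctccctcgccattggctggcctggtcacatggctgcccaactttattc
HOXD8 chr2:176129555-176129704: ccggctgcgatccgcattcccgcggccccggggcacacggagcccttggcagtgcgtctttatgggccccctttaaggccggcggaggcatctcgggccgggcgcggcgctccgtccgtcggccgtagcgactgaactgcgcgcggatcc
HOXD13 chr2:176092571-176092720: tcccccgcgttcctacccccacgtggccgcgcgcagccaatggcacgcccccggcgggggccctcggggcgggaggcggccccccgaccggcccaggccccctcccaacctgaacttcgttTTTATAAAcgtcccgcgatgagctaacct
Over the whole entries, from 250 bases before to 50 after the start, HOXD8 held 34 CG dinucleotides, HOXD3 25, HOXD13 24 and HOXD4 4, beside a median of 14 over 35116 promoters. The 4 entries shown thus spanned low and high CG content. Because they were chosen for genes that fell, a link of CG content with the fall was not tested. TATAAA on either strand was in 1 of 8 HOXD entries (HOXD13) and in 11.5% of all promoters. TGACAG, the core bound by MEIS factors, was in HOXD4 alone of the 8, outside the stretch shown, and in 15.8% of all promoters. TGATNNAT, the core bound by PBX with HOX, was in HOXD11 alone and in 7.4% of all. AGGTCA, the core bound by retinoic acid receptors, was in none of the 27 HOX entries and in 13.8% of all. A match to letters is a description of the window and not a mapped site.

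HOXC changed by position in NCI-H1581R. HOXC10 counts were 1550 and 1767 before and 13 and 9 after (log2 fold change -7.27 ± 0.30, adjusted p = 6.54e-05), a fall that took it from the second place among HOX genes to 0.145 CPM per kb. HOXC11 went from 401 and 497 to 12 and 5 (-5.75 ± 0.43, adjusted p = 0.000449). HOXC9 went from 195 and 240 to 58 and 64 (-1.88 ± 0.32, adjusted p = 0.0137). These 3 adjacent posterior genes fell in both replicates. On the anterior side of HOXC9 the direction turned. HOXC8 went from 281 and 293 counts to 1262 and 1415 (2.16 ± 0.20, adjusted p = 0.00105), HOXC6 from 637 and 776 to 1274 and 1316 (0.82 ± 0.17, adjusted p = 0.031) and HOXC5 from 405 and 292 to 809 and 674 (1.02 ± 0.28, adjusted p = 0.0755). The annotated end of HOXC9 and the start of HOXC8 are 5648 bases apart. At the ends of the cluster, HOXC4 had 363 and 362 counts before and 323 and 340 after (-0.19 ± 0.23, adjusted p = 0.685), and HOXC13 had 1970 and 2282 before and 1772 and 1716 after (-0.34 ± 0.16, adjusted p = 0.258). HOXC12, between HOXC11 and HOXC13, had 6 and 9 counts before and 1 and 0 after (adjusted p = 0.187). The HOXC sum was 84.4 and 79.0 CPM per kb before and 74.0 and 70.6 after, at 52.4% and 51.1% of the HOX sum.

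In HOXA and HOXB, 1 gene each was called with resistance in NCI-H1581. HOXB4 counts were 1163 and 1313 before and 666 and 582 after (log2 fold change -1.04 ± 0.19, adjusted p = 0.0173) while its neighbours HOXB2 (1181 and 1233 after) and HOXB3 (398 and 591 after) had changes of 0.10 ± 0.17 and -0.02 ± 0.26. HOXB5 had 28 and 36 counts after 53 and 77 (adjusted p = 0.215), and HOXB13 had 1129 and 1045 after 837 and 899 (adjusted p = 0.43). HOXB7 had 302 and 243 counts after 176 and 223. HOXA7 had 980 and 1171 counts after 629 and 795 (0.54 ± 0.19, adjusted p = 0.133), and HOXA4 had 239 and 265 after 77 and 169 (0.99 ± 0.35, adjusted p = 0.144). HOXA10 fell from 26 and 15 counts to 3 and 0, a ratio of 14.3 (95% counting interval 4.55 to 72.0, adjusted p = 0.0942). That call was lost in DESeq2. HOXA6 had 77 and 89 counts after, and HOXA5 48 and 84. The other members, HOXA2, HOXA3, HOXA11, HOXA13, HOXB6, HOXB8 and HOXB9, had 2 to 55 counts in NCI-H1581R and adjusted p of 0.622 to 0.973.

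In NCI-H1703R against NCI-H1703, 3 of 38 HOX genes were called (7.89%), beside 14.7% of all genes tested, and all 3 fell (7.67% of all genes fell and 7.06% rose). They were HOXB4, HOXB13 and HOXC13, which means that 2 of the 3 are group 13 genes. HOXB13 counts were 426 and 456 before and 178 and 195 after (log2 fold change -1.32 ± 0.18, adjusted p = 0.0132). HOXC13 went from 988 and 1013 to 507 and 589 (-0.95 ± 0.14, adjusted p = 0.0153). HOXB4 went from 81 and 95 to 24 and 12 (-2.36 ± 0.47, adjusted p = 0.0366). HOXB4 lost its call without NCI-H1703R replicate 2, and the 3 calls were lost when either NCI-H1703 library was left out, with 0 HOX calls by edgeR in both cases. With replicate number as a block 10 genes were called (34.9% of all genes tested), which added HOXA3, HOXB3, HOXB9, HOXD1, HOXD10 and HOXD11, lower, and HOXC8, higher. HOXB3 had 14 and 7 counts after 48 and 20 (adjusted p = 0.186, or 0.0433 with the block), HOXB9 had 42 and 38 after 71 and 79 (0.165, or 0.0604), and HOXA3 had 553 and 548 after 753 and 580 (0.178, or 0.0464).

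Several genes that were called in NCI-H1581R were not called here. HOXC10 had 2869 and 3087 counts after 2820 and 2595 (0.06 ± 0.09, adjusted p = 0.733), HOXC9 had 1208 and 1127 after 1161 and 971 (0.06 ± 0.11, adjusted p = 0.796) and HOXC8 had 1177 and 1174 after 1020 and 860 (0.25 ± 0.10, adjusted p = 0.196). In HOXD, HOXD8 had 217 and 230 counts after 177 and 186 (0.23 ± 0.20, adjusted p = 0.563), HOXD9 had 277 and 294 after 296 and 254 (-0.02 ± 0.16, adjusted p = 0.997) and HOXD13 had 107 and 122 after 108 and 113. HOXD3 had 15 and 12 counts after 13 and 12, and HOXD4 had 11 and 2 after 15 and 2. HOXC6 had 875 and 775 after 792 and 629, HOXC4 49 and 37 after 51 and 38, and HOXC5 19 and 6 after 12 and 11. Other HOXD genes had lower counts after resistance. HOXD11 had 3 and 10 counts after 19 and 27 (-1.88 ± 0.72, adjusted p = 0.183, or 0.0542 with the block), and HOXD10 had 0 and 1 after 4 and 6 (0.207, or 0.097). HOXD1, at 7 and 6 counts before, was at 0 in both NCI-H1703R libraries (adjusted p = 0.108, or 0.0411 with the block). HOXA4 had 128 and 119 counts after 156 and 135, HOXA6 36 and 39 after 33 and 21, and HOXA2, HOXA5, HOXA11 and HOXB6 had 33 to 59. HOXA7, HOXA13, HOXB2, HOXB5, HOXB7, HOXB8, HOXC11 and HOXC12 had at most 10 counts in any NCI-H1703 or NCI-H1703R library.

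**Figure D3:**
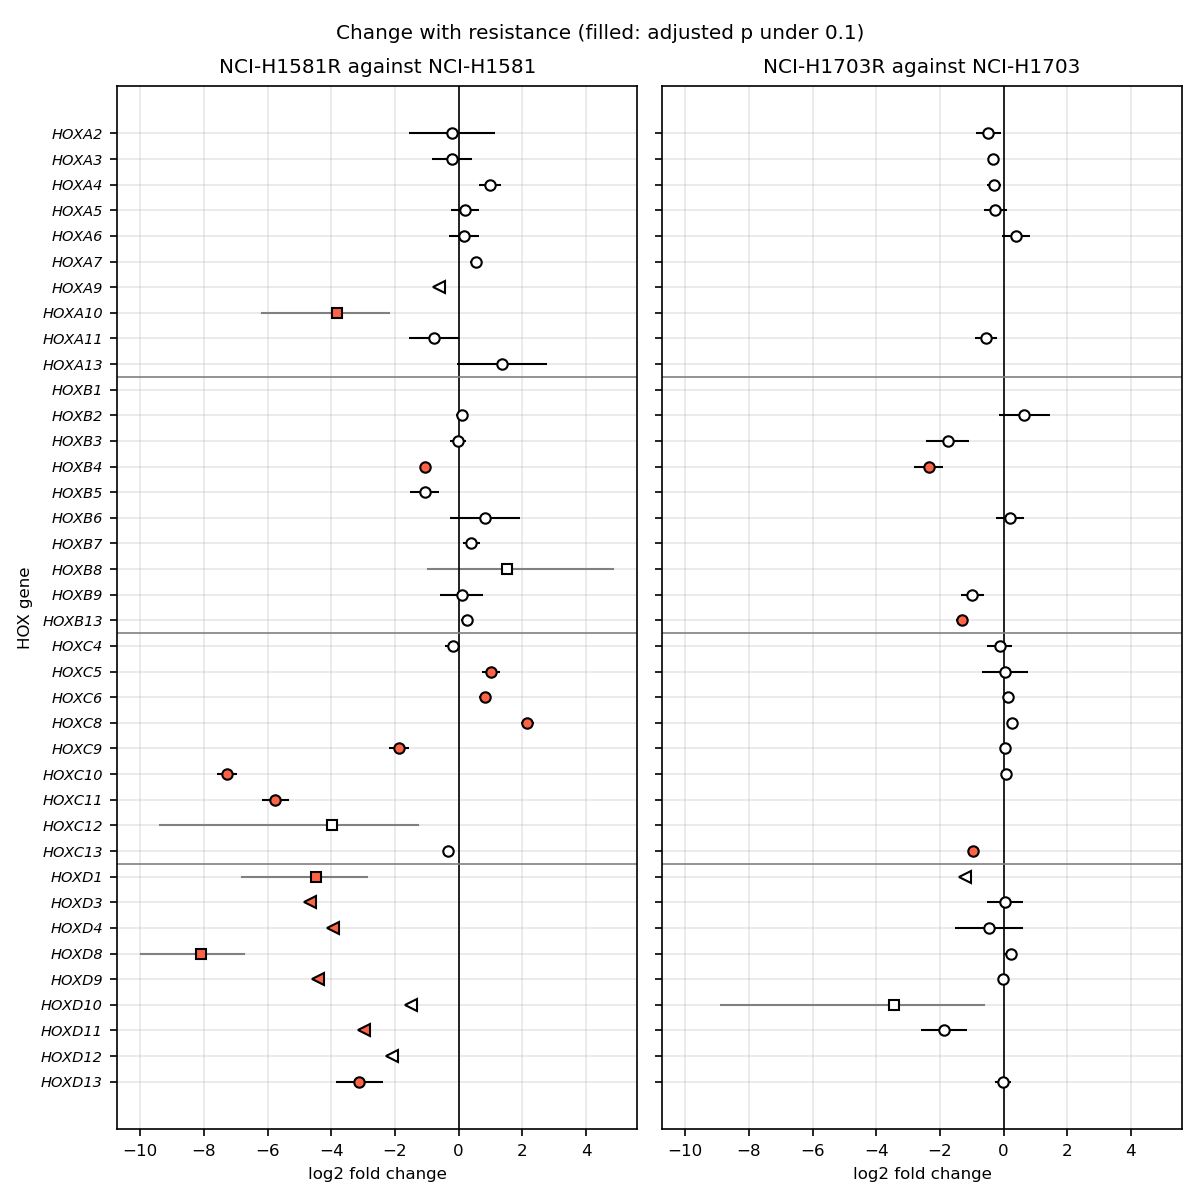
Log2 fold change of each HOX gene with resistance in NCI-H1581 (left) and NCI-H1703 (right), filled where the adjusted p was under 0.1. Circles are fitted values with SE, squares are ratios against 1 to 4 counts with 95% counting intervals, triangles are bounds against 0 counts, and genes at or under the floor in both groups have no mark; HOXC10 stands at -7.27 on the left and 0.06 on the right.

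The difference between the 2 resistance effects was tested itself, with all 8 libraries. It was called for 11 of 38 HOX genes (28.9%), beside 15.4% of all genes tested. The change was more positive in NCI-H1703 for 6 genes (6.93% of all genes), which were HOXC9, HOXC10, HOXD3, HOXD8, HOXD9 and HOXD13. It was more negative for 5 genes (8.47%), which were HOXA4, HOXB13, HOXC6, HOXC8 and HOXC13. For HOXC10 the difference was 7.32 ± 0.26 on the log2 scale (adjusted p = 6.28e-06) and for HOXD8 it was 8.21 ± 0.47 (adjusted p = 9.42e-06). For HOXB13, which fell in NCI-H1703R and had a log2 change of 0.27 ± 0.18 in NCI-H1581R, it was -1.61 ± 0.24 (adjusted p = 0.00389). HOXB4 fell in both lines and its difference was not called by edgeR (-1.34 ± 0.45, adjusted p = 0.11). With replicate number as a block within each line, HOXB3 and HOXD4 were added to the 11 (adjusted p = 0.0896 and 0.0359), beside 18.9% of all genes. DESeq2 called 14 HOX genes, adding HOXB3, HOXB4 and HOXD4, beside 19.5% of all genes. Whether the fall of HOXB4 differed between the lines thus depended on the tool.

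Genes next to the clusters were compared to see how far the HOXD and HOXC changes extended. Within 1 Mb of HOXD in NCI-H1581R, 4 genes were tested besides the HOX genes, and their log2 fold changes lay between -0.30 (ATP5MC3) and 0.27 (LNPK). Of the 3 protein-coding genes on each side of HOXD, 5 were tested and edgeR called 0, with 0 at an unadjusted p under 0.05 and 1 called by DESeq2. LNPK, the nearest expressed gene on one side, had 595 and 799 counts before and 886 and 851 after, and MTX2, on the other side, had 1375 and 1467 before and 1578 and 1632 after. HOXC had 37 tested genes within 1 Mb, of which 1 rose and 3 fell (15.1% of all genes were called), and their median log2 change was 0.11. The one that rose was CBX5, which encodes the heterochromatin protein HP1 alpha, from 4357 and 5652 counts to 14987 and 13440 (1.46 ± 0.18, adjusted p = 0.00356). Next to HOXA, 4 of the 6 nearest protein-coding genes rose, beside 7.63% of all genes, and EVX1, a homeobox gene at the posterior end of HOXA, went from 2 and 0 counts to 192 and 181 (7.32 ± 0.76, adjusted p = 0.000828). The HOXA gene nearest to it, HOXA13, had 8 and 3 counts after 0 and 4. Long noncoding RNAs of the HOX clusters were not analysed here.

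**Figure D4:**
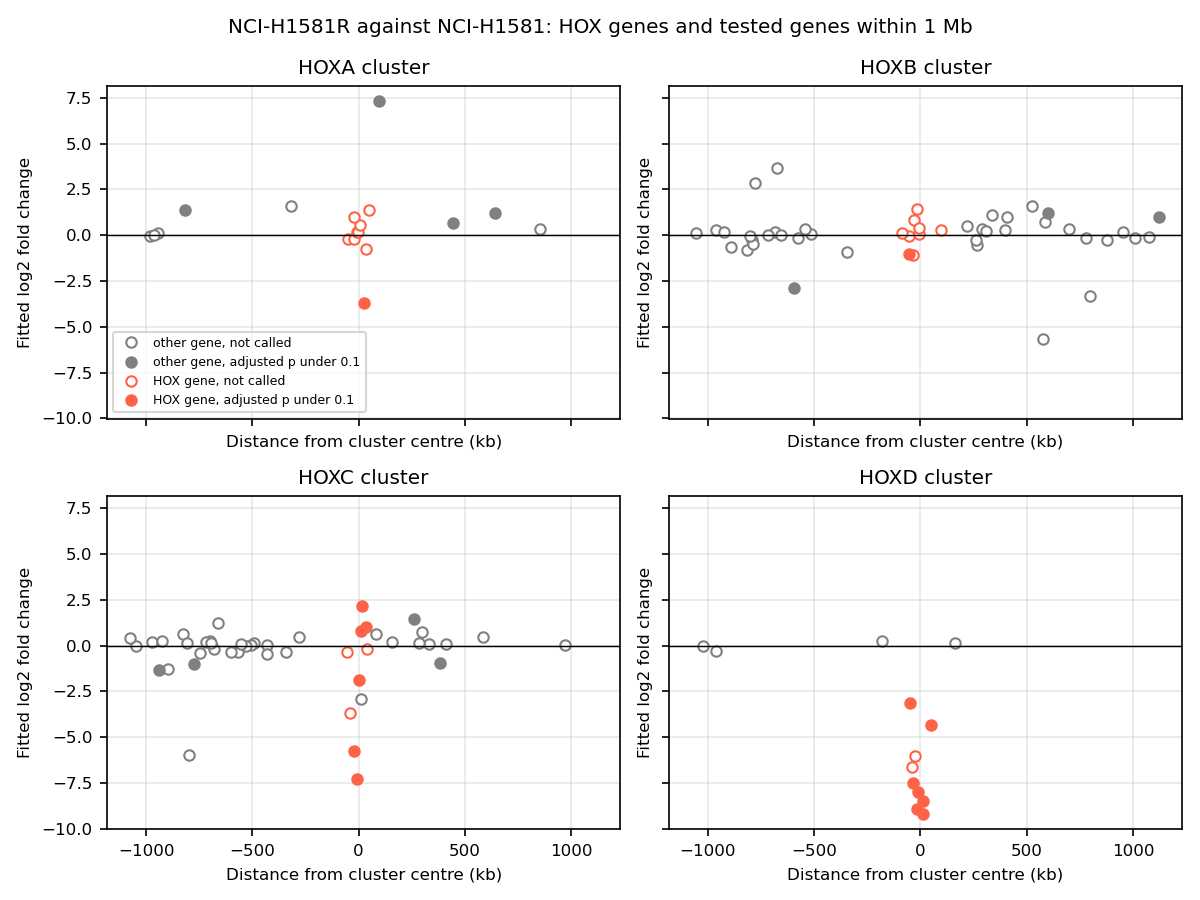
Fitted log2 fold change in NCI-H1581R against NCI-H1581 (y axis) by distance from the centre of each cluster in kb (x axis) for HOX genes (red) and other tested genes within 1 Mb (grey), filled where the adjusted p was under 0.1. The fitted values of HOXD genes at 0 counts depend on the prior count and are not bounds; the 4 genes beside HOXD lie between -0.30 and 0.27.

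Among 8 TALE cofactors, 2 rose in NCI-H1581R and edgeR called 0 in NCI-H1703R, beside 15.1% and 14.7% of all genes called. At an unadjusted p under 0.05 there were 4 in NCI-H1581R and 1 in NCI-H1703R, and DESeq2 called 3 and 0. MEIS1 went from 2 and 0 counts to 147 and 288 in NCI-H1581R (adjusted p = 0.00198) and had 10 and 13 in NCI-H1703R after 25 and 19. The 2 effects differed for MEIS1 (adjusted p = 0.00463). PBX3 rose in NCI-H1581R from 1558 and 1993 to 2925 and 2898 counts (0.67 ± 0.16, adjusted p = 0.0508). The most abundant cofactors besides these were PBX2 and MEIS2 in NCI-H1581, at 1762 to 2526 counts, and MEIS3 in NCI-H1703, at 2162 and 1893. Between the parental lines 3 cofactors were higher in NCI-H1703 and 3 lower, beside 32.5% and 30.4% of all genes. MEIS2 was lower there, at 340 and 294 counts (-2.79 ± 0.13, adjusted p = 1.91e-06).

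The list of 16 CDX and retinoic acid genes changed in both directions in NCI-H1581R. Of 14 tested, 4 rose and 3 fell there, and 4 rose in NCI-H1703R, beside 15.1% and 14.7% of all genes called. The retinoic acid synthesis enzyme ALDH1A2 went from 3 and 1 counts to 5574 and 4165 in NCI-H1581R, while ALDH1A1, an enzyme of the same family, went from 3458 and 4455 to 26 and 26 (a log2 change of -7.29 ± 0.25, adjusted p = 4.16e-05). CYP26A1, which degrades retinoic acid and is itself a retinoic acid target, went from 194 and 211 to 11759 and 11059 (5.76 ± 0.20, adjusted p = 4.16e-05), and CYP26C1 from 25 and 34 to 1467 and 1804. The binding protein CRABP2 rose from 3382 and 3636 to 10156 and 7114 (1.25 ± 0.22, adjusted p = 0.0174). The receptor RARG fell from 2575 and 2483 to 1170 and 1477 (adjusted p = 0.0225), and the retinaldehyde reductase DHRS3 fell from 243 and 163 to 18 and 25. In NCI-H1703R the 4 that rose were RARA (0.50 ± 0.09), RARG (0.30 ± 0.08), ALDH1A3 (0.90 ± 0.15) and DHRS3 (1.15 ± 0.22). RARG and DHRS3 thus went in opposite directions in the 2 lines, and the difference was called for both (adjusted p = 0.00591 and 0.0016). CDX2, an activator of central HOX genes in the gut, had 4 to 18 counts in NCI-H1581 and NCI-H1581R and 135 to 241 in NCI-H1703 and NCI-H1703R. CDX4 was at 0 in all libraries.

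**Figure D5:**
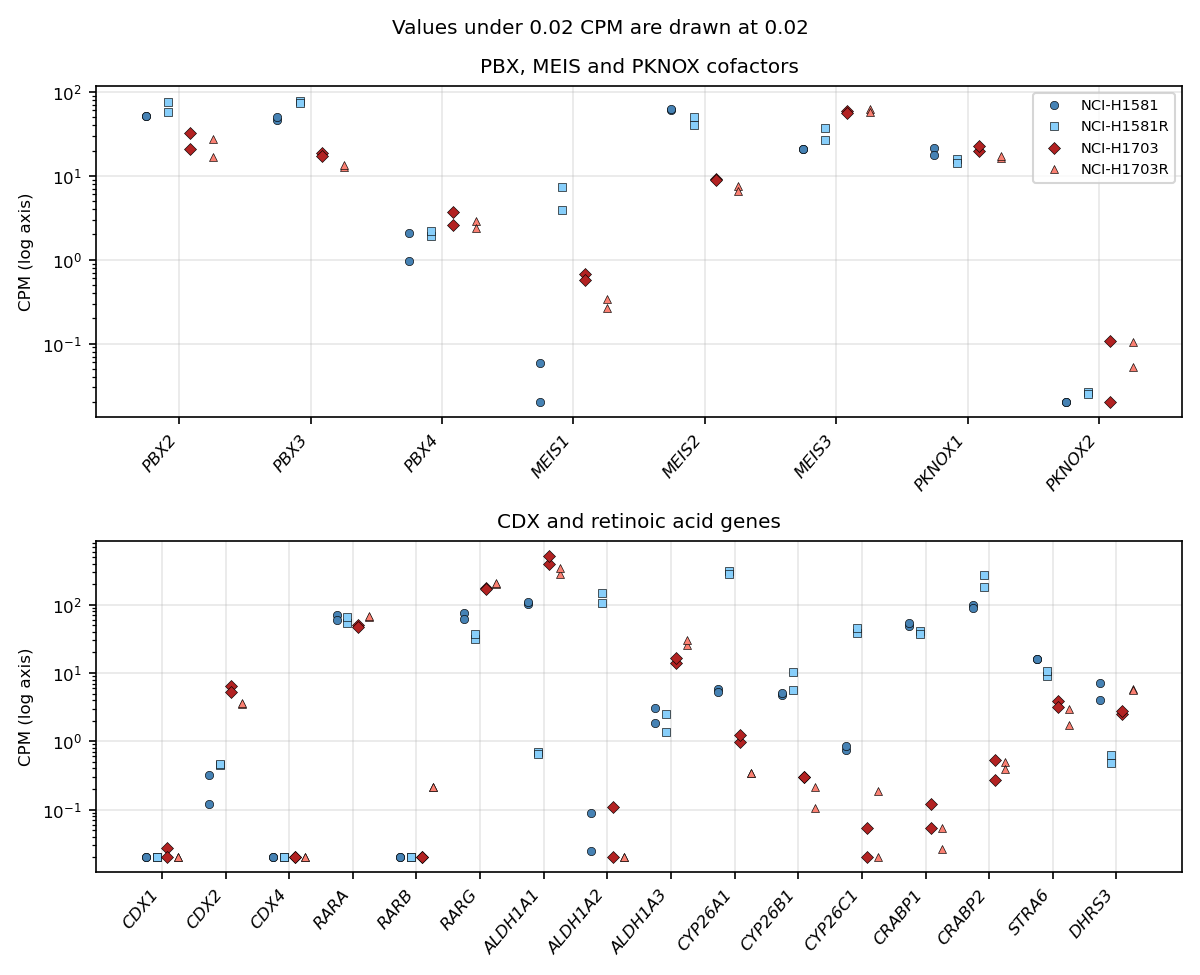
CPM (log axis) of 8 TALE cofactors (upper panel) and the 16 CDX and retinoic acid genes (lower panel), with 1 point per replicate and a colour and marker per variant; values under 0.02 CPM are drawn at 0.02. MEIS1, ALDH1A2, CYP26A1 and CYP26C1 stood higher in NCI-H1581R than in NCI-H1581.

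Genes of the Polycomb and Trithorax complexes, like all genes tested, were called more often between the lines than with resistance. Of 21 Polycomb genes tested from a list of 22, 9 were higher and 9 lower in NCI-H1703 than in NCI-H1581. Over all genes tested, 32.5% were called higher and 30.4% lower there. CBX7 was higher in NCI-H1703, at 1661 and 1506 counts against 214 and 169 (log2 fold change 3.11 ± 0.18, adjusted p = 6.38e-06), and CBX2 was lower, at 1359 and 1243 against 6609 and 7098 (-2.34 ± 0.10, adjusted p = 1.62e-06). EZH2, the methyltransferase of Polycomb repressive complex 2, was lower in NCI-H1703, at 1305 and 1207 against 2251 and 2721 (-0.92 ± 0.11, adjusted p = 0.000226). With resistance 1 Polycomb gene rose and 1 fell in each line, beside 15.1% and 14.7% of all genes called. In NCI-H1581R these were BMI1, a subunit of Polycomb repressive complex 1, from 987 and 1612 counts to 5365 and 4985 (1.96 ± 0.21, adjusted p = 0.00237), and CBX6, from 6346 and 7073 to 3792 and 5123 (-0.65 ± 0.19, adjusted p = 0.0855). In NCI-H1703R they were RBBP7 (0.31 ± 0.09, adjusted p = 0.0966) and PHF19 (-0.53 ± 0.08, adjusted p = 0.0194). EZH2 had 2041 and 2259 counts in NCI-H1581R and 1083 and 1146 in NCI-H1703R and was called in neither. Of 13 Trithorax genes, 5 were higher and 5 lower in NCI-H1703, beside the same 32.5% and 30.4% of all genes. Only ASH2L, a shared subunit of the H3K4 methyltransferases, was called with resistance by edgeR, and it fell in both lines, from 3086 and 3962 counts to 1779 and 1423 in NCI-H1581R (-1.18 ± 0.19, adjusted p = 0.0118) and from 5764 and 5589 to 3856 and 4362 in NCI-H1703R (-0.54 ± 0.10, adjusted p = 0.0321).

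Other marker genes moved with the HOX changes in NCI-H1581R. The mesenchymal genes FN1 (21 and 57 counts before, 28023 and 36165 after) and ZEB1 (56 and 92 before, 711 and 1246 after) rose, as did NKX2-1 and the basal and squamous factor TP63 (211 and 232 before, 1045 and 1229 after). VIM and CDH2, the other mesenchymal markers listed, were not called by edgeR, and the lowest log2 change on that list was -1.37. On the lung adenocarcinoma, squamous and neuroendocrine lists 1 gene each was called, higher, beside 7.63% of all genes. The lowest log2 change on the lung adenocarcinoma list was -0.74. Summed over the 4 mesenchymal markers, the level went from 6716 and 6104 CPM to 5502 and 4882. CD68 fell from 3261 and 3092 to 702 and 578 counts. The summed level of the 5 blood and endothelial markers, which was almost wholly CD68, went from 97.0 and 77.6 CPM to 19.1 and 15.2, with CD3E and CDH5 at 0 in all 4 libraries. In NCI-H1703R the epithelial keratin KRT18 fell from 2380 and 2188 counts to 109 and 94, and CDH2, which encodes N-cadherin, fell from 1857 and 1626 to 41 and 44. The part of these shifts in the HOX results was not tested.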

How the data were processed

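Total RNA from 8 cultures was sequenced, and per the methods of the study reads were trimmed with cutadapt, quantified with Salmon against GRCh38 and summed per gene with tximport. The authors deposited estimated counts per gene as whole numbers, not normalised. Salmon version, annotation and strandedness are not given in the sources used here. From these counts, edgeR 4.0.16 in R 4.3.3 (quasi-likelihood test, legacy=FALSE, TMM, two-sided) was run on all 18203 genes with at least 10 counts in total, each comparison on its own 4 libraries and the difference of resistance effects on all 8. P-values were adjusted over all genes tested (Benjamini-Hochberg), and adjusted p under 0.1 was called, as in the study. Single values are given with an SE derived from the test, as the absolute log2 fold change divided by the square root of its F statistic. CPM used TMM factors of all 8 libraries, and levels per length used the canonical transcript of the annotation (merged exon length as an alternative). Intervals of ratios are exact and cover counting error only, and bounds use 3 counts per library.

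Genes given in full had a mean of at least 1 CPM in any variant and a call in any comparison, which was met by 27 genes, and the other 11 are given by counts or ranges. The members and lists were chosen with earlier results of these data known. In simulated data for NCI-H1581R against NCI-H1581 (18203 genes, 200 changed), the test recovered 111, among them 48 of the 50 with 8-fold changes, and made 14 false calls. The changed genes were drawn only from those with an expected mean of at least 50 counts. Recovery for genes of fewer counts, such as HOXD10 and HOXD12, was thus not measured. Replicates of a variant differed by more than counting error (chi-square per degree of freedom 23.3 to 96.8).

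Per the labels, seeding and harvest were done again to give replicate 2, so an alternative fit took the replicate number as a blocking factor. Deviations of same-numbered libraries from their variant means had r = 0.0627 between NCI-H1581 and NCI-H1581R and r = 0.206 between NCI-H1703 and NCI-H1703R, across 12102 genes, which are not independent replicates. Alternatives were DESeq2 1.42.0, RLE scaling, other filters, a stricter threshold, a single fit and leaving out each library. Copy number and protein data were not used here, and 1 gene of the cofactor list is not reported here.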

Additional observations from a re-analysis of the deposited data

Results flagged for a closer look

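The log2 change with resistance in NCI-H1703 minus that in NCI-H1581 was past the threshold in the interaction test of edgeR for 11 HOX genes, which is why they are listed. It was -1.32 for HOXA4 (adjusted p = 0.0863), -1.61 for HOXB13 (0.00389), -0.70 for HOXC6 (0.0578), -1.93 for HOXC8 (0.00053) and -0.63 for HOXC13 (0.0784). It was 1.92 for HOXC9 (adjusted p = 0.00197), 7.32 for HOXC10 (6.28e-06), 8.21 for HOXD8 (9.42e-06) and 3.08 for HOXD13 (0.0274). For HOXD3 and HOXD9 the fitted values were 9.18 and 8.88 (adjusted p = 0.0177 and 0.00374), and they depend on the prior count because both genes had 0 counts in both NCI-H1581R libraries. For HOXB13 and HOXC13 the lower value was that of NCI-H1703R, and for HOXC9, HOXC10 and the 4 HOXD genes it was that of NCI-H1581R.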

How the results depend on the processing

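Leaving genes out unless every library of the fit had at least 10 counts removed genes at or near 0 in 1 variant from the fit and lowered HOX calls to 16 (from 29) for NCI-H1703 against NCI-H1581, 10 (from 27) for NCI-H1703R against NCI-H1581R, 5 (from 15) for NCI-H1581R and 7 (from 11) for the difference of effects. The replicate block raised NCI-H1703R against NCI-H1703 from 3 to 10 HOX calls and from 2683 to 6356 calls over all genes. At adjusted p under 0.05, calls over all genes were 1793 (from 2743) in NCI-H1581R and 1640 in NCI-H1703R, and a single fit of 8 libraries gave 4539 and 1730. The cause was not tested. Leaving out 1 library, with the lone library assumed to vary like the others, gave 24 to 29, 21 to 27, 10 to 17, 0 to 3 and 8 to 11 HOX calls in the 5 comparisons, and 9603 to 10969, 6120 to 10361, 1128 to 5185, 274 to 1686 and 1571 to 4141 calls over all genes. In NCI-H1581R against NCI-H1581, HOXA10 lost its call without either NCI-H1581 library and without NCI-H1581R replicate 2, and HOXB4, HOXC5 and HOXC6 did so without either NCI-H1581 library. HOXC9 lost it without NCI-H1581 replicate 2, HOXD13 without NCI-H1581 replicate 1 or NCI-H1581R replicate 2, and HOXD1 and HOXD11 without NCI-H1581R replicate 2. Among differences of effects, HOXC6 and HOXC13 lost their calls without any 1 library of NCI-H1581, NCI-H1703 or NCI-H1703R, and HOXA4 without any 1 of NCI-H1703 or NCI-H1703R, NCI-H1581 replicate 1 or NCI-H1581R replicate 2. HOXD13 lost its call there without NCI-H1581R replicate 2. In NCI-H1703R against NCI-H1581R, HOXA4, HOXA6, HOXA13, HOXB9, HOXC6 and HOXC11 lost theirs without either NCI-H1703R library and HOXD11 without NCI-H1703R replicate 2, while HOXA13 did so without NCI-H1581R replicate 1 and HOXA6 and HOXB9 without NCI-H1581R replicate 2, and DESeq2 did not call HOXA6, HOXA13, HOXB9, HOXC11 and HOXD11. Of 2178 values of single HOX genes under the alternatives, 2041 kept their direction and side of the threshold, 100 lost and 37 gained a call, and 0 reversed. Same-numbered libraries of NCI-H1581R and NCI-H1703R deviated in opposite directions (r = -0.319), and crossing the numbers, an alternative chosen after seeing the data along with the legacy dispersions of edgeR, gave 28 HOX calls (23 with the block as numbered) and 11063 calls over all genes (7638). Beyond those given, the block changed no count by over 1.5 times. With 2 libraries per variant, genes of few counts such as HOXD10 and HOXD12 could reach 0 without passing the threshold in the edgeR fit of 4 libraries. Both passed it in the single fit of 8.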
